A study of Mus musculus with 2 samples.

Results

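The KMT2D peaks on chromosome 15 are the 257 regions of that chromosome in a list of 3738 peaks (6.88%) that came from 1 ChIP library and 1 input library of HT22 cells, an immortalised mouse hippocampal line. The members were chosen by the authors' peak calls and by the chromosome, and are described separately for the 95 whose summit lay between 30 and 65 Mb, called the inner segment here, and for the other 162. Both libraries came from wild-type cells of a single clone grown to 70% confluency; the ChIP library was precipitated with the anti-KMT2D antibody ABE1867, and the input library had no antibody. The series also describes cells whose KMT2D lacks its enzymatic SET domain, which are not analysed here. Since there was 1 library of each kind, no difference below has a replicate check, no test was run on any of them, and intervals are 95% intervals that cover counting error only.

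KMT2D, also called MLL4, is a large methyltransferase of histone H3 lysine 4. It works in a complex with UTX and is best known for placing the monomethyl mark at enhancers, where it works together with the acetyltransferases p300 and CBP; it is also found at promoters. Mutations of its gene cause Kabuki syndrome, in which learning and memory are often affected, and in the mouse the Kmt2d gene itself lies on chromosome 15.

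The 12 summits that fell inside a promoter window listed by RefSeq (250 bases before to 50 bases after a gene's start, GRCm38.p6) all lay outside the inner segment, which held 94 of the 936 windows listed for the chromosome. RefSeq listed the strand for only 2 of the 17 inner gene-end summits, so the inner count of 0 says nothing about starts there. The windows of the 5 with the highest fold are printed to show the bases around the starts of their genes. Each window is a fixed interval and can reach beyond its peak. At A130051J06Rik, for example, the peak spanned chr15:95804270-95804504 and covered only part of the window. The windows are given 5′ to 3′ on the gene's own strand, with capitals for any match, on either strand, to 6 motifs spelled out after them. A130051J06Rik, a long non-coding RNA gene that overlaps the left end of the scramblase gene Ano6, is on the minus strand at chr15:95804412-95804711. Apol9b, an apolipoprotein L gene, is on the plus strand at chr15:77728822-77729121. Atg101, an autophagy gene, is on the plus strand at chr15:101284051-101284350. Tob2, an antiproliferative gene, is on the minus strand at chr15:81858277-81858576. Mpst, which encodes an enzyme of cysteine breakdown, is on the plus strand at chr15:78406462-78406761.
A130051J06Rik: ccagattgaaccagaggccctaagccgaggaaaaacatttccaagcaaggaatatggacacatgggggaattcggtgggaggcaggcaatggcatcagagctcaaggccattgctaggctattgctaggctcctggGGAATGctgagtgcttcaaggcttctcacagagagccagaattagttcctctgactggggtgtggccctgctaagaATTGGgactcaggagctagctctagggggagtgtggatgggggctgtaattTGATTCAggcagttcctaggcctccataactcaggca
Apol9b: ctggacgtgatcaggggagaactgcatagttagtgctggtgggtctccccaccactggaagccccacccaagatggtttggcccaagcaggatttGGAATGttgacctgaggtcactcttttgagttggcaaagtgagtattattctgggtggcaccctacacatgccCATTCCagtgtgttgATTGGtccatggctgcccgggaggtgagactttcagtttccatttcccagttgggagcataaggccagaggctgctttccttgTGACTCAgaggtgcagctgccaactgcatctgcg
Atg101: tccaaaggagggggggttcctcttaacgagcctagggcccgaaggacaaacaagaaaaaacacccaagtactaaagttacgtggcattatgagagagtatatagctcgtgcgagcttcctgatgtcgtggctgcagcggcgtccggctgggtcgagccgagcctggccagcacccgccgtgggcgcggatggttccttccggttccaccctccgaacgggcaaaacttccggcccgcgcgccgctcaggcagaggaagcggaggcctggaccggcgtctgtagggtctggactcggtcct
Tob2: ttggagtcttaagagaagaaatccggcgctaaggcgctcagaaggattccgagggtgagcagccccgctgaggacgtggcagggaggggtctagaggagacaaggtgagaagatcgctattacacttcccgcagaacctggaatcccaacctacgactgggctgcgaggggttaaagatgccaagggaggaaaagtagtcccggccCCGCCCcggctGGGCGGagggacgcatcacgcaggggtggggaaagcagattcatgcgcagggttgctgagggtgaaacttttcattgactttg
Mpst: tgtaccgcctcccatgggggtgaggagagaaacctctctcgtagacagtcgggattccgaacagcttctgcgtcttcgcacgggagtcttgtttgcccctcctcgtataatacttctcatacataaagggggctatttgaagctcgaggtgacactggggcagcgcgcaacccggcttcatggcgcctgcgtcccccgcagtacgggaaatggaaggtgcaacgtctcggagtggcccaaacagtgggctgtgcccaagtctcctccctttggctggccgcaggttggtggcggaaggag

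The folds of these 5 peaks ran from 6.01 (interval 4.14 to 8.45) at A130051J06Rik through 4.97 at Apol9b, 4.73 at Atg101 and 4.39 at Tob2 to 4.23 at Mpst. Fold is the authors' value at the summit, the ChIP pileup plus 1 over the background plus 1, both in fragments. The Apol9b window holds the AP-1 motif TGANTCA as TGACTCA, and the A130051J06Rik window holds it as TGATTCA. The AP-1 motif was in 4 of the 12 windows (A130051J06Rik, Apol9a, Apol9b and Osmr) and in 7.81% of all 32851 listed promoters. The Apol9a and Apol9b windows share an unbroken identical run of 278 of 300 bases, so they do not count as separate sequences, and how reads were split between these near-identical copies is not known. The GC box GGGCGG was in 7 of the 12 windows against 35.7% of all promoters, CCAAT in 5 against 37.4%, the TEAD motif GGAATG in 3 against 14.7% and the E-box CACGTG in 1 against 7.15%. The cyclic AMP response element TGACGTCA was in none of the 12 and in 1.79% of all promoters. The 12 windows had a median G+C content of 61.7%, and all promoters 52.7%. A match to these letters is a description of the window and not a measured site.

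The inner segment held many summits for its number of genes. It had 2.71 summits per Mb (2.20 to 3.32) and the rest of the chromosome 2.46 (2.10 to 2.87), close to each other and above the 1.47 per Mb of the other autosomes. The inner segment is gene-poor, with 3.77 protein-coding genes per Mb against 9.75 in the rest and 8.60 on the other autosomes. Per 100 protein-coding genes it therefore held 72.0 summits (58.2 to 88.0, 132 genes), against 25.2 (21.5 to 29.4, 642 genes) in the rest and 17.1 on the other autosomes. Chromosome 15 as a whole, at 33.2 per 100 genes, ranked 1 among the autosomes by genes and 2 by length.

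The background at the summits moved with this difference. The median background was 10.3 fragments (9.51 to 11.7) in the inner segment, 6.49 (6.06 to 6.93) in the rest and 6.05 on the other autosomes, so the inner median was 1.58 times that of the rest. The highest background in the rest was 13.0 fragments, and 25 of the 95 inner summits lay above it. The ChIP pileup was also higher, with a median of 47 fragments (42 to 52) against 33 (30 to 36), and the median fold was 4.10 (3.73 to 4.33) against 4.49 (4.23 to 4.83), with 4.50 on the other autosomes. The part of the background in the number of peaks was not tested. At a fold of at least 5.75, the 75th percentile of the whole list, 17 inner summits (17.9%) and 41 of the rest (25.3%) remained, where the share on the other autosomes was 25.5%. Counted this way the inner segment had 0.486 summits per Mb and the rest 0.623. The ratio of 0.780 had an interval of 0.416 to 1.40, so the counts do not settle which density was higher. Per 100 genes the inner segment still had more, 12.9 against 6.39, with 4.37 on the other autosomes.

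**Figure D1:**
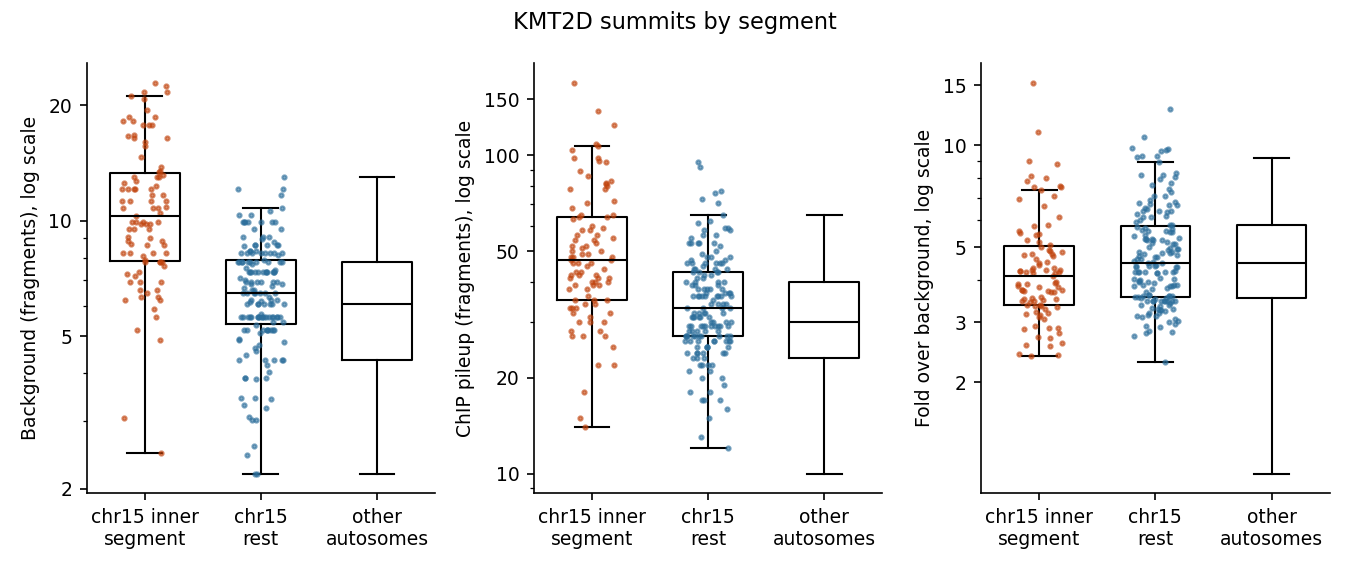
Background, ChIP pileup and fold (log axes; background and pileup in fragments) at each chromosome 15 summit, with the 3386 summits of the other autosomes as a box only. Boxes show the median and quartiles, with whiskers to the farthest value within 1.5 times the interquartile range; the inner segment, 30 to 65 Mb, has the higher background (median 10.3 against 6.49) and the slightly lower fold (4.10 against 4.49).

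The summits nearest to the edges of the inner segment differed less evenly. Of the 2 summits just below 30 Mb, both inside Trio, the nearer one had a background of 3.42 and the other 6.92, with folds of 9.27 and 5.56. The 2 just above had backgrounds of 7.90 and 8.25 and folds of 3.71 and 3.35. The first lay 63049 bp from the catenin gene Ctnnd2 and inside the long non-coding RNA gene Gm32011, 173 bp from its end. The second lay 37893 bp from Dap. At the other edge, the last 2 inner summits near the adenylyl cyclase gene Adcy8 had backgrounds of 11.2 and 9.51, with folds of 4.25 and 7.99. The first 2 beyond 65 Mb, near Lrrc6 and inside the thyroglobulin gene Tg, had 2.19 and 5.62, with folds of 4.39 and 5.74. No summit lay between 27936177 and 31092393 or between 64622858 and 66508137, so the peaks place neither edge more closely than that.

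Within the inner segment the background was not even. In windows of 5 Mb its median was 8.08 at 30 to 35 Mb, 12.1 at 35 to 40 Mb, 9.51 at 40 to 45 Mb, 8.22 at 50 to 55 Mb, 13.1 at 55 to 60 Mb and 10.6 at 60 to 65 Mb. The window from 35 to 40 Mb had 25 summits for 33 genes, and the window from 60 to 65 Mb had 20 summits for 11 genes. The window from 45 to 50 Mb, with 2 genes, had no summit. In the rest of the chromosome the window with the most summits, 75 to 80 Mb, had 40 for 157 genes and a median background of 7.19. The window from 25 to 30 Mb, also in the rest, had 11 summits for 12 genes on a median background of 5.62.

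**Figure D2:**
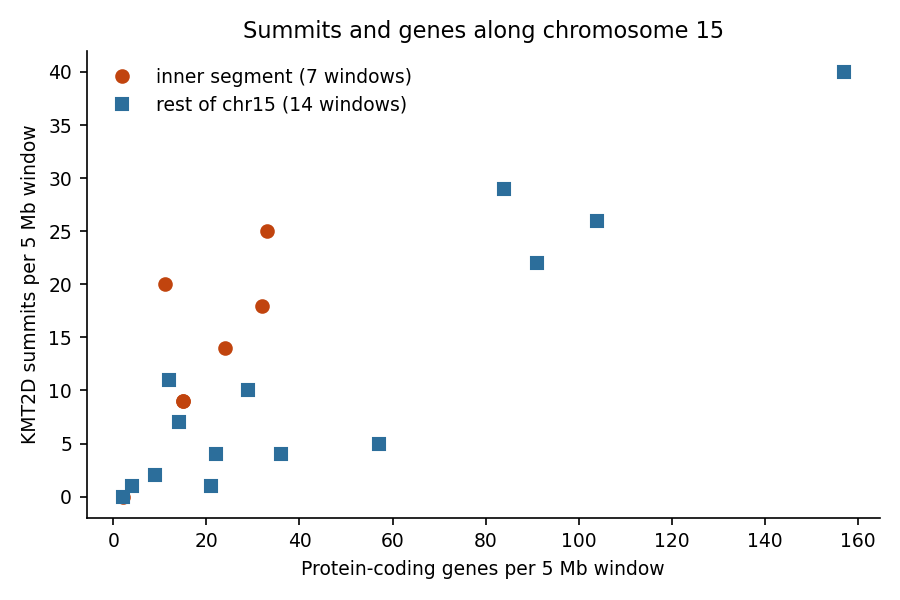
KMT2D summits against protein-coding genes in each 5 Mb window of chromosome 15, 7 windows of the inner segment (circles) and 14 of the rest (squares). Most circles lie above the squares of like gene number, for example 20 summits for 11 genes and 25 for 33, while the window with 157 genes had 40.

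**Figure D3:**
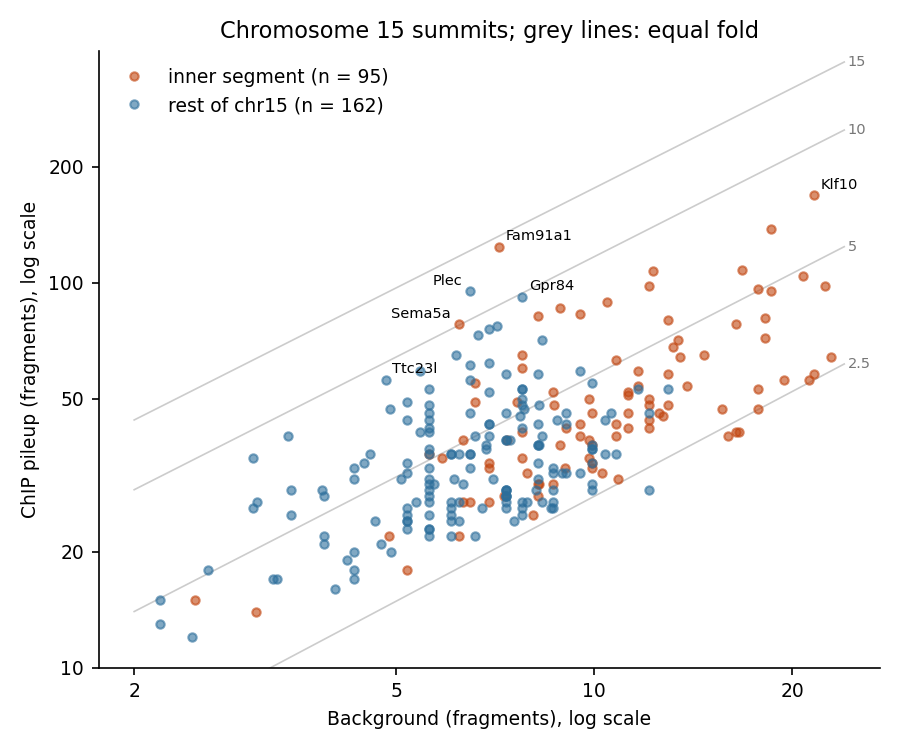
ChIP pileup against background (fragments, log axes) at each of the 257 summits, with grey lines of equal fold and the nearest gene of 6 summits. The inner summits reach backgrounds of 22.9 and a pileup of 169 at Klf10, the rest stop at 13.0 and 95.

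The inner summits lay farther from protein-coding genes. Within 2 kb of a gene's end, which is either its start or its finish, lay 17 of 95 (17.9%), against 52 of 162 (32.1%) in the rest and 27.1% on the other autosomes. Farther inside a gene lay 25 (26.3%) against 61 (37.7%), with 32.9% on the other autosomes. Between genes lay 53 (55.8%) against 49 (30.2%), with 40.0% on the other autosomes. More than 100 kb from any gene end lay 22 inner summits (23.2%), against 3 in the rest (1.85%) and 10.2% on the other autosomes. The median distance to a gene end was 49210 bp in the inner segment, 6955 bp in the rest and 10991 bp on the other autosomes. Genes were also sparser there, and the part of gene spacing in these shares was not tested. Seen from the genes, 14 of the 132 inner genes (10.6%, 6.42 to 17.0) and 48 of the 642 others (7.48%) had a summit within 2 kb of an end, where the share over all 21774 protein-coding genes of the genome was 5.08%.

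**Figure D4:**
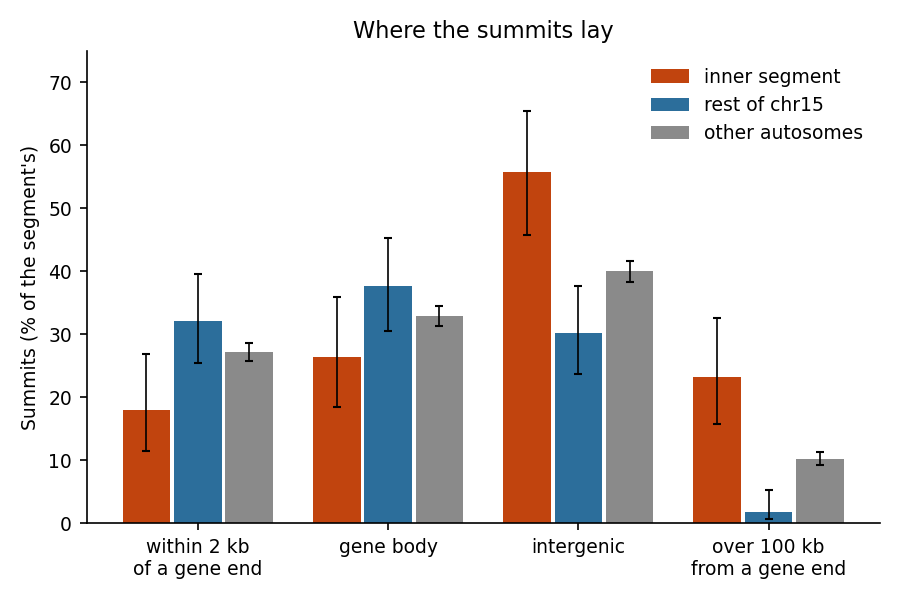
Percent of summits within 2 kb of a protein-coding gene end, farther inside a gene, between genes, and, across these classes, over 100 kb from a gene end, with Wilson 95% intervals. The inner segment, 30 to 65 Mb, has 55.8% between genes and 23.2% over 100 kb away, against 30.2% and 1.85% in the rest. On the other autosomes these shares are 40.0% and 10.2%.

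Summits in the inner segment came in runs. With a run defined as 3 or more summits, each within 50 kb of the next, 46 of the 95 inner summits (48.4%, 38.6 to 58.3) stood in 12 runs, against 49 of 162 (30.2%) in 14 runs in the rest and 29.5% on the other autosomes. The inner run with the most summits, 7 over 90.3 kb, lay around Azin1, the gene of the antizyme inhibitor, which keeps polyamine synthesis going. Its folds went from 2.41 to 7.09 on backgrounds of 7.29 to 19.5. The summit of 7.09 (pileup 138, background 18.6) lay 34534 bp outside the gene. One of the run, at chr15:38470830, was the broadest peak of the chromosome at 1163 bp, with a fold of 4.90; the summit inside the gene, 882 bp from its end, reached 2.89.

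The neighbouring Klf10 locus had a run of 3 summits in 31.9 kb. Klf10 encodes a zinc finger repressor that is switched on early after TGF-beta. The peak at chr15:38298893-38299891 spanned 999 bp, had its summit 1458 bp inside the gene, the pileup of 169 fragments was the highest on the chromosome and the fold was 7.52 (6.43 to 8.73). That summit also lay inside the long non-coding RNA gene Gm35248, 506 bp from its end. A second summit 53 bp outside the gene, on the same background of 21.6, had a fold of 2.61, and another, 22641 bp away on a background of 12.1, had 7.55. At Klf10 pileup and background were both among the highest of the chromosome.

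Further inner runs lay elsewhere along the segment. Between Ywhaz, which encodes the adaptor 14-3-3 zeta, and Zfp706, 4 summits over 65.3 kb lay outside any protein-coding gene, and the highest, 8.13 (6.67 to 9.81), lay inside Gm34590, a long non-coding RNA gene, 754 bp from its end. Baalc, a gene known from brain and acute leukaemia, had 4 summits with folds of 2.87 to 5.49. The highest of these lay 13948 bp outside Baalc. Trps1, which encodes a GATA-type transcriptional repressor, had 4 in its body, between 3.36 and 4.27. Matn2, the gene of the matrix protein matrilin-2, had 3 in a run from 3.07 to 7.39. Nsmce2, the gene of a SUMO ligase in the SMC5/6 complex, had 3 between 3.51 and 4.33, and the stretch before Atp6v1c1, a proton pump subunit gene, had 3 between 3.11 and 4.71. The 3 summits in the run by Tbc1d31, Fam83a and 9130401M01Rik had 2.56 to 6.14, and the highest of them lay at a tRNA gene described below.

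Trib1 and Asap1 each had summits at an end and a second group farther off. Trib1 encodes a pseudokinase that steers proteins to degradation. Its nearest summit, 150 bp beyond the gene, reached 4.22 from a pileup of 98 on a background of 22.5, and a run of 5 more, 71294 to 166244 bp away, between 2.88 and 4.87 on backgrounds of 12.1 to 20.8. Asap1 encodes a GTPase-activating protein for Arf that acts on focal adhesions. A run of 3 near one end of the gene had folds of 7.86, 3.90 and 4.78, and a run of 4 lay 87985 to 136528 bp beyond that end, between 3.51 and 5.23.

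The stretch around Myc, the gene of the transcription factor, had 10 summits over 1.17 Mb for which Myc was the nearest protein-coding gene, and none was within 2 kb of it. Their folds ran from 2.57 to 9.01, with a median of 4.61. The highest lay 453110 bp away, with a pileup of 82 on a background of 8.22. The nearest to the gene, 89087 bp away with a fold of 4.48, and the next, at 4.73, both lay inside the long non-coding RNA gene Pvt1. A distance of this size does not tie a summit to a gene.

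Among single inner peaks, the highest fold of the chromosome was 15.3 (12.7 to 18.2), at chr15:58480290-58480998, from a pileup of 124 on a background of only 7.17. It lay between genes, 22712 bp from Fam91a1, which encodes a protein of Golgi traffic. The next was 10.9, in the body of Sema5a, the gene of an axon guidance semaphorin, 83981 bp from its end, on a background of 6.23. Dap, a gene named for its part in cell death, had a summit of 8.82 at 36734 bp outside it. At 76177 bp from Adcy8 the fold was 7.99, and 147224 bp from Has2, the gene of a hyaluronan synthase, it was 7.51. Of the 12 inner peaks of highest fold only the one at Klf10 was within 2 kb of a gene end. The rest of the chromosome was alike in this. Of its 12 peaks of highest fold only the one near Ttc23l, at 1442 bp, was that close.

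Peaks at gene ends in the inner segment were mostly low in fold. Apart from Klf10 and Asap1, the largest were Trib1 at 4.22, Fam83a at 3.89 and Baalc at 3.81. Pabpc1, the gene of the poly(A)-binding protein, had 3.35, Sema5a 2.93 at its end and Marchf6, a ubiquitin ligase gene, 2.69. Atad2, which encodes a bromodomain ATPase, had the highest background of the chromosome, 22.9 fragments, and a fold of 2.72 (2.10 to 3.46). Ebag9 had 2.41. The lowest inner background, 2.48, was at a summit of fold 4.60 near Tnfrsf11b, the gene of osteoprotegerin.

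In the rest of the chromosome the highest fold was in Plec, which encodes plectin, a linker between intermediate filaments and the other cytoskeletal systems. The peak at chr15:76204049-76204657 had 12.8 (10.4 to 15.6), from a pileup of 95 on a background of 6.49. A second Plec peak, 1128 bp wide, had 9.20, and the other two 4.77 and 5.30, so that the run of 4 within 13.9 kb all lay in the gene body. Other cytoskeletal and adhesion genes in runs were Myo10, the gene of a filopodial myosin, with 5 summits from 3.11 to 8.16, and Tns2, which encodes a tensin, with 3 from 2.998 to 6.68. In the Myo10 run 3 summits lay inside the gene, up to 7.27. The others, of 8.16 and 6.52, lay 44735 and 32326 bp outside it. Cdc42ep1, the gene of a Cdc42 effector, had 9.31 at 8239 bp outside it and 2.90 at its end, in a run of 5 with Card10 and Lgals2. Trio held 9.27 in its body.

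Krt80, a keratin gene, had 5 summits in 14.4 kb, with folds of 4.24 to 8.14, and all 5 lay inside the long non-coding RNA gene Gm35853. The highest was 11671 bp outside Krt80. Within 2 kb of an end of Krt80 lay 3 of them, with folds of 4.24, 5.12 and 5.71, the last from a pileup of 59. Mir1941, a microRNA gene, lay 148 bp from the summit of 5.12 inside Krt80.

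Transcription and chromatin genes with runs in the rest were Cbx7, which encodes a Polycomb protein, with 3 summits of 4.79 to 8.28, and Hdac7, a class II histone deacetylase gene, with 3 of 4.22 to 6.34. A run of 3 in Bop1, a ribosome biogenesis gene, overlapped Scx, which encodes the tendon transcription factor scleraxis and lies within it; its broadest peak was 958 bp with a fold of 6.15. The genes Tef and Tob2 shared a run of 3 with folds of 3.87 to 6.49. Zfp740, the integrin gene Itgb7 and the retinoic acid receptor gene Rarg shared one of 2.96 to 6.15. Slc38a2, a glutamine transporter gene, had 3 summits, with 3.27 at its end and 7.07 at 44558 bp away. Ccn4, a matrix signalling gene, shared a run of 3 with Tg, between 4.42 and 7.40.

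Further single peaks of high fold in the rest were 10.6 near Gpr84, a receptor gene for medium-chain fatty acids, 2784 bp outside it with a pileup of 92. Near Ttc23l the fold was 9.78, 1442 bp outside the gene. Mgat3, which encodes an enzyme that bisects N-glycans, had 9.72 at 3966 bp, and Gramd4 had 9.65 in its body. Faim2, an inhibitor of Fas-driven death in neurons, had 9.62 at 19093 bp, in a run with the aquaporin genes Aqp2 and Aqp5, and Fam135b had 8.94 in its body on a background of 3.03. The Ppara side peak at chr15:85671756 was 1076 bp wide but had a fold of only 3.59.

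Kmt2d itself had 1 summit, at chr15:98872195, 1882 bp inside the gene (98831669 to 98874077). The fold of the summit was 4.62, from a pileup of 30 on a background of 5.71, near the list's median fold of 4.45. For the gene-end summits of the rest whose strand RefSeq listed, 27 were at the start and 5 at the finish, with 20 not listed. Start and finish here are a gene's outermost ends. In the rest, 25 summits were within 1 kb of a listed protein-coding start. Of these, 13 were upstream and 12 downstream, with a median of 8 bp upstream (-8).

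The gene lists, 9 in number with 259 matched genes of chromosome 15, were used to order the genes by role, and 30 of these had a summit at an end. Over all 774 protein-coding genes of the chromosome the count was 62 (8.01%). The lists were drawn up with earlier results of these data known, so their counts describe and do not test. Among 20 genes that respond to signals or stress, 7 (35%) had a gene-end summit, with a median fold of 3.42. They were Klf10 at 7.52, Tob2 at 6.49, Trib1 at 4.22, the growth factor gene Pdgfb at 3.42, the orphan receptor gene Nr4a1 at 3.07, Azin1 at 2.89 and Atf4, the stress-response factor, at 2.29. The Atf4 fold was the lowest on the chromosome, on a background of 12.1. Tef and Pvt1 had summits in their bodies only.

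Of 25 genes of actin, adhesion and the YAP and SRF pathways, 5 had a gene-end summit and 7 more (28%) a summit in the body only. Body-only summits were found in 3.74% of all protein-coding genes and in 6.85% of those on chromosome 15. The genes of this list were long, with a median of 81.6 kb against 18.3 kb for the chromosome's protein-coding genes, and the part of length in the count was not tested. At the ends were Asap1 at 4.78, Lgals1, the galectin-1 gene, at 4.23, Myo10 at 4.04, the focal adhesion kinase gene Ptk2 at 3.62 and Cdc42ep1 at 2.90. The body-only group held Plec, Trio, Tns2, Triobp, Myh9, Ano6 and Cyrib. A Tns2 summit was 814 bp upstream (-814) of a start listed within the gene. Of 33 chromatin and transcription genes, 3 had a gene-end summit, namely Kmt2d, the p300 gene Ep300 at 3.03 and Atad2. Another 7 (21.2%), in a list with a median gene length of 42.4 kb, had one in the body only (Cbx7, Cbx5, Hdac7, Tcf20, Trps1, Zfpm2 and Rad21). The Cbx5 summit was 335 bp, and a Hdac7 summit 118 bp, downstream of a start listed within the gene. Of 31 translation and RNA genes, 4 had one, Cpsf1 at 4.60, Pcbp2 at 3.94, Pabpc1 at 3.35 and Eif3d at 2.92, and none had a summit in the body only.

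Of 27 metabolic genes 2 had one, Tspo at 3.47 and Slc38a2 at 3.27, and the Tspo summit was nearer to Ttll12. Of 32 neuronal and glial genes 2 had one, the neurotrophic factor gene Gdnf at 3.84 and Sema5a at 2.93. The calcium channel genes Cacng2, Cacna1i and Cacnb3 had summits in the body only, away from their outermost ends. The Cacnb3 summit was 16 bp upstream (-16) of a start listed within the gene. Of 31 matrix and receptor genes only Osmr, the oncostatin M receptor gene, had one, at 3.52, and of 25 cell cycle genes only Tuba1a, at 4.19. Of 35 genes in the keratin, Ly6, Hoxc and apolipoprotein L clusters 5 had one, Krt80, Apol9b at 4.97, Ly6a at 4.20, Apol9a at 3.99 and Ly6c1 at 3.59. The windows of Apol9a and Apol9b are near-identical, so which of these copies a read came from is uncertain. How alike the other members of these clusters are was not measured.

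Within 500 bp of a summit were 1 of the 4 tRNA genes of the chromosome, 1 of 44 snRNA genes, 1 of 50 microRNA genes and none of 42 snoRNA genes. The shares over the whole genome were 33.7%, 2.01%, 0.977% and 0.226%. The tRNA gene, n-TMcat16, lay directly under a summit of 6.14 (5.04 to 7.40) with a pileup of 108 on a background of 16.8. The snRNA gene Rnu12, of the minor spliceosome, lay under a summit of 4.04, and a neighbouring summit 456 bp away had 2.74. Some small RNA families have many copies, and whether reads at these genes could be placed uniquely was not measured.

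Long stretches had no summit. The longest, 12.2 Mb from 12111479 to 24303307, held 13 protein-coding genes, among them the cadherin genes Cdh6, Cdh9, Cdh10, Cdh12 and Cdh18 and Drosha, the microRNA processing gene. The summit at its far side lay 825816 bp from Cdh18, with a fold of 6.73. In the inner segment 5.92 Mb between Sybu and Trps1, with Kcnv1 and Csmd3, were empty. Another 5.37 Mb between Cpne8 and Ano6, with 22 genes including Lrrk2, Cntn1 and Nell2, had none, and 3.44 Mb between Zfat and Fam135b, with Khdrbs3, had none. A stretch without a called peak shows only that no region passed the authors' threshold at this depth. The lowest backgrounds of the chromosome, 2.19 fragments, were also the lowest value in the whole list. They were at summits 142041 bp from Ghr and 7216 bp from Lrrc6, with folds of 5.01 and 4.39 from pileups of 15 and 13.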

How the data were processed

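KMT2D binding was read from 1 deposited peak list of 1 ChIP library against 1 input library, both of wild-type HT22 cells. The submitters' processing notes name Bowtie2, Picard, MACS2 and mm10; for settings, thresholds and library totals, the sources used here give nothing. The deposited list gives each peak's interval and summit, a fold (ratio) of ChIP to background, and the −log10 of a p-value and a q-value, made by the authors. The deposited score was not used.

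Pileup and background were solved from fold, (pileup + 1) / (background + 1), and the Poisson p-value, within 0.001 of the deposited −log10 p. This succeeded for 3689 of 3738 peaks (98.7%), including all 257 on chromosome 15. Of 2000 peaks simulated from the folds and backgrounds of chromosome 15, 100% were recovered. They were built with the same formula, so this checks the solving step and not the formula. Intervals were exact Poisson (fold, with background fixed), Wilson (shares), exact binomial (ratios) and order-statistic (medians), at 95%. Genes and promoters came from RefSeq, GRCm38.p6; a gene end is a summit within 2 kb of either end of a protein-coding gene. Of 260 list entries 259 matched. The members, segments and gene lists were chosen with earlier results of these data known. Named genes were the 12 highest folds per segment, runs, list members, broadest and extreme-background peaks, edges, gaps and small RNA genes; the long non-coding RNA genes of the closing section, and Ebag9, Marchf6 and Pabpc1 as gene-end peaks, were chosen after their values were seen. Alternatives were stricter thresholds, other windows and other segment edges. Python 3.11.15, pandas 2.3.3, NumPy 2.4.6, SciPy 1.17.1 and matplotlib 3.10.9 were used.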

Additional observations from a re-analysis of the deposited data

How the results depend on the processing

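Of 58 alternative settings over 9 results, 43 stayed within the counting interval of the value reported and 15 moved beyond it. Keeping only summits whose fold was in the part of the list above 5.75, its 75th percentile, moved the ratio of summits per Mb, inner over rest, from 1.10 to 0.780 and the ratio per 100 genes from 2.85 to 2.02. It also moved the median inner background from 10.3 to 8.87 fragments, the median folds to 7.52 (inner) and 7.07 (rest), and the gene-end shares to 5.88% and 12.2%. Keeping summits at or above the median −log10 q moved the chromosome's ratio per 100 genes to the other autosomes from 1.94 to 2.30, the median folds to 4.72 (inner) and 5.64 (rest), and the gene-end share of the rest to 21.6%. Edges of 35 and 60 Mb gave a ratio per 100 genes of 2.17 and a median background of 12.1. Gene-end windows of 1 kb and 5 kb gave 19.8% and 43.2% for the rest. The ratio per 100 genes of the rest to the other autosomes, 1.47 (1.25 to 1.73), stayed within its interval in each setting run. A selection on fold raises a median fold by construction; the cause of the other moves was not tested. No paired analysis was possible because the comparison has 1 ChIP and 1 input library and comes from no test. Without library totals or read positions, differences of depth, DNA content and mapping along the chromosome were not resolved, and the lowest pileups were 12 fragments.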

Other observations

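Long non-coding RNA genes were the nearest gene within 1 kb of 8 inner summits (8.42%) and 11 in the rest (6.79%), against 6.91% on the other autosomes. Of these, 5 inner summits and 5 in the rest lay inside that gene. Within 10 kb the counts were 26 (27.4%) and 28 (17.3%), against 19.8%. In the inner segment 2310043O21Rik had a summit of 4.71 inside it, 596 bp from its end, and one of 3.11 lying 22 bp beyond that end. Gm41308, between Klf10 and Azin1, held a summit of 4.53, 491 bp from its end, and Gm19510 and Gm36819, beyond Trib1, had summits of 4.20 and 2.88 outside them, 890 and 74 bp away. In the rest Gm671, beside Krt80, had a summit of 8.14 outside it, 745 bp away, and one of 5.12 inside it, and Gm41405, in the keratin cluster, held one of 6.40 (4.89 to 8.24). Gm30368, next to Lgals1, had one of 4.23 outside it, 310 bp away, and Gm52196 had a summit 3 bp away with 3.62. A summit close to such a gene could also belong to a neighbouring protein-coding gene, and the list does not tell them apart.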
